A study of Mus musculus with 6 samples.

Results

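MicroRNA (miRNA) precursor rows are the rows of the deposited gene table whose name begins with Mir and a number or with Mirlet7. They were chosen by their reads: a row counted as a member when at least 3 of the 6 libraries held reads for it, which left 313 of 663 rows so named. Another 220 of the 663 held no read in any library and 130 held reads in only 1 or 2 libraries. These rows count fragments of longer RNA that cover the hairpin, so mature miRNA is not measured. The rows are read here as a trace of transcription and processing at their locus, though some stood far above a host transcript, as given below.

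The samples are tumor endothelial cells (TECs) taken from Lewis lung carcinoma (LLC) tumors of C57BL/6 mice, 8 weeks old by the labels, with 3 libraries in each of 2 groups. NICeCA mice join a Cdh5 promoter-driven Cre ERT2, active in endothelium after tamoxifen, to a Rosa26 allele in which removal of a floxed stop releases the Notch1 intracellular domain (ICD). Ctrl mice are labelled wild type, and the sources used here do not say whether they carried Cre or received tamoxifen. Cells were captured on beads that bind CD31, and the labels state a high purity from endomucin staining and Ac-LDL uptake. The study's methods give a single day after inoculation for these libraries, while the labels say that dissection days differed. The transgene is driven in endothelial cells of the whole mouse, so the tumor vessels are not its only site. The libraries come from rRNA-depleted total RNA.

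A miRNA is transcribed as part of a long primary transcript, often inside an intron or exon of another gene, from which Drosha and Dgcr8 release a short hairpin in the nucleus. Exportin-5 carries the hairpin to the cytoplasm, Dicer trims it to the mature form, and an Argonaute protein loads it to repress messages that pair with its seed. In endothelium this system is known for miR-126, made from an intron of Egfl7, and for the miR-23, miR-27 and miR-24 clusters, miR-221 and miR-222, which act on vessel growth.

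Levels are given as RPKM, reads scaled to row length and library depth, in the order of replicates 1, 2 and 3 of each group. Fold changes are NICeCA minus Ctrl on the log2(RPKM + 1) scale with their standard error, n = 3 mice per group throughout. A row was tested where its mean over the libraries reached 1 RPKM, and it is said to have risen or fallen where limma, fitted over all 12320 RefSeq rows tested, gave an adjusted p under 0.05.

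The label of the cells was checked against marker genes. All 14 endothelial markers on the list were in the table, and their summed level was 651, 257 and 334 RPKM in Ctrl and 560.3, 729.9 and 673 in NICeCA, with Pecam1 the most abundant. Ctrl 2 and Ctrl 3 were lowest, and 2 of the 14, Flt1 and Vwf, were higher in NICeCA past the test while 0 were lower; all 14 values were positive, with a median of 0.66. Endothelial RNA was present in every library, yet 10 macrophage markers, led by the complement gene C1qa, summed to 3892, 3114 and 2766 RPKM in Ctrl and 3803, 2980.4 and 1858 in NICeCA. That sum lay above the endothelial sum in each library. Of 11 neutrophil markers 7 were tested and 6 rose, with sums of 126, 209 and 283 RPKM in Ctrl and 631, 883 and 1689 in NICeCA, led by S100a9, a calcium-binding protein abundant in neutrophils. Of 9 fibroblast markers 8 were tested, 1 rose and 3 fell, with sums of 342, 572 and 408 RPKM in Ctrl and 214, 170.1 and 341 in NICeCA, led by Col3a1. Mural markers summed to 42.1, 36.4 and 53.9 RPKM in Ctrl and 90.1, 71.0 and 139.7 in NICeCA and 2 of 7 tested rose, Rgs5 and Tagln. The erythroid and platelet list of 8 summed to 134, 124 and 186 RPKM in Ctrl and 1133, 1046 and 909.9 in NICeCA, 82.6% to 92.7% of it in Ctrl and 97.7% to 99.3% in NICeCA from Pf4, a platelet chemokine that alone of 4 tested rose (2.98 ± 0.21, limma adjusted p = 0.0069). The 5 epithelial markers, led by Cdh1, summed to 7.27, 6.71 and 12.3 RPKM in Ctrl and 8.57, 6.13 and 8.07 in NICeCA, and of 2 tested 1 fell, Krt18 (-0.98 ± 0.23, limma adjusted p = 0.0381). None of the marker rows was at 0 in every library. The part that these other cells play in the miRNA rows below was not tested, and in bulk RNA fewer cells of a type and less RNA per cell cannot be told apart.

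Most precursor rows rested on few reads. The median row was 84 bases long and held a mean of 4.33 reads per library, 94 of the 313 reached a mean of 10 reads and 27 reached 100. The members together held 19217, 17182 and 15636 reads in Ctrl and 16624, 15617 and 17757 in NICeCA, similar amounts in the 2 groups. Reads were present in all 6 libraries for 192 members, in Ctrl only for 7 and in NICeCA only for 2. Just inside the rule, the 49 rows with reads in exactly 3 libraries had a median of 5 reads summed over the libraries (3 to 17). Just outside it, the 44 rows with reads in exactly 2 had a median of 2 (2 to 8). By kind, 298 members were single precursor rows, 3 were spliced host transcripts (Mir17hg, Mir22hg and Mir143hg) and 12 were rows whose position spans several loci.

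The most abundant rows are given first. Mir3069 was highest, at 2323, 1565 and 1153 RPKM in Ctrl and 1400.0, 1450.3 and 1802 in NICeCA, and lies within the rows Scarna13, a small Cajal body RNA, and Snhg10, a small nucleolar RNA host gene. Mir1949, inside Snhg4, followed at 625, 714 and 335 RPKM in Ctrl and 414, 363 and 488 in NICeCA. Each was highest in a Ctrl library and the groups overlapped. Per length, Mir3069 stood at 1.39 of the Scarna13 level but at 1270 times the Snhg10 level. Mir1949 stood at 71.8 times the Snhg4 level. The source of the reads in these rows was not tested. Mir5121, in the ribosomal protein gene Rpl13a, stood at 396, 331 and 328 RPKM in Ctrl and 419, 421 and 376 in NICeCA, with overlapping groups and a narrow spread. The rest of the highest 10 were Mir5130 (in Kctd12), Mir1198, Mir3091 (in an intron of the ribosomal protein gene Rps21), Mir5136, Mir3077 (in Sap18), Mir3064 (in the RNA helicase gene Ddx5) and Mir677 (in Atp5b, a subunit of ATP synthase). Of these 10 rows only Mir1198, a row spanning several loci, passed the test (log2 fold change 1.04 ± 0.17, limma adjusted p = 0.0192).

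Between the groups, 14 miRNA rows rose in NICeCA and 14 fell, among 176 that passed the filter on low values and 137 that did not. That is 15.9% of the tested rows, against a background of 13.6% of all RefSeq rows in the same fit. In the higher direction the members reached 7.95% against 5.88%, and in the lower direction 7.95% against 7.68%. In this fit the share of members called was near the share of all rows. The groups did not overlap for 57 of the 176, or 32.4%, against 40.9% of all tested rows. The median log2 fold change was -0.11 for the members and -0.05 for all rows. After quantile normalization the split was 9 higher and 4 lower, and all RefSeq rows also gave fewer calls, more of them higher than lower, as given below. Under limma voom on the recovered reads 7 members passed, 3.98% against 14.3% of all rows: Mir675, Mir1198, Mir221, Mir5107, Mir29a, Mir22hg and Mir147. Of the 28 members called, 12 had a mean under 10 reads, and 8 (26 of the 176 tested) had a mean under 1 RPKM in 1 group and so passed the filter only through the other, where they were high: Mir155, Mir19b-1, Mirlet7f-1, Mir1942, Mir29b-2, Mir3096b, Mir3103 and Mir680-2. The count changed with 1 library left out, which also leaves fewer mice. It was 9 without Ctrl 2, 2 without NICeCA 1, and 0 by limma without NICeCA 2, where 56 members had an unadjusted p under 0.05. Calls among all RefSeq rows fell as well, from 1671 to between 27 and 1661 with 1 library left out. All 28 kept their direction in each of these fits.

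**Figure D1:**
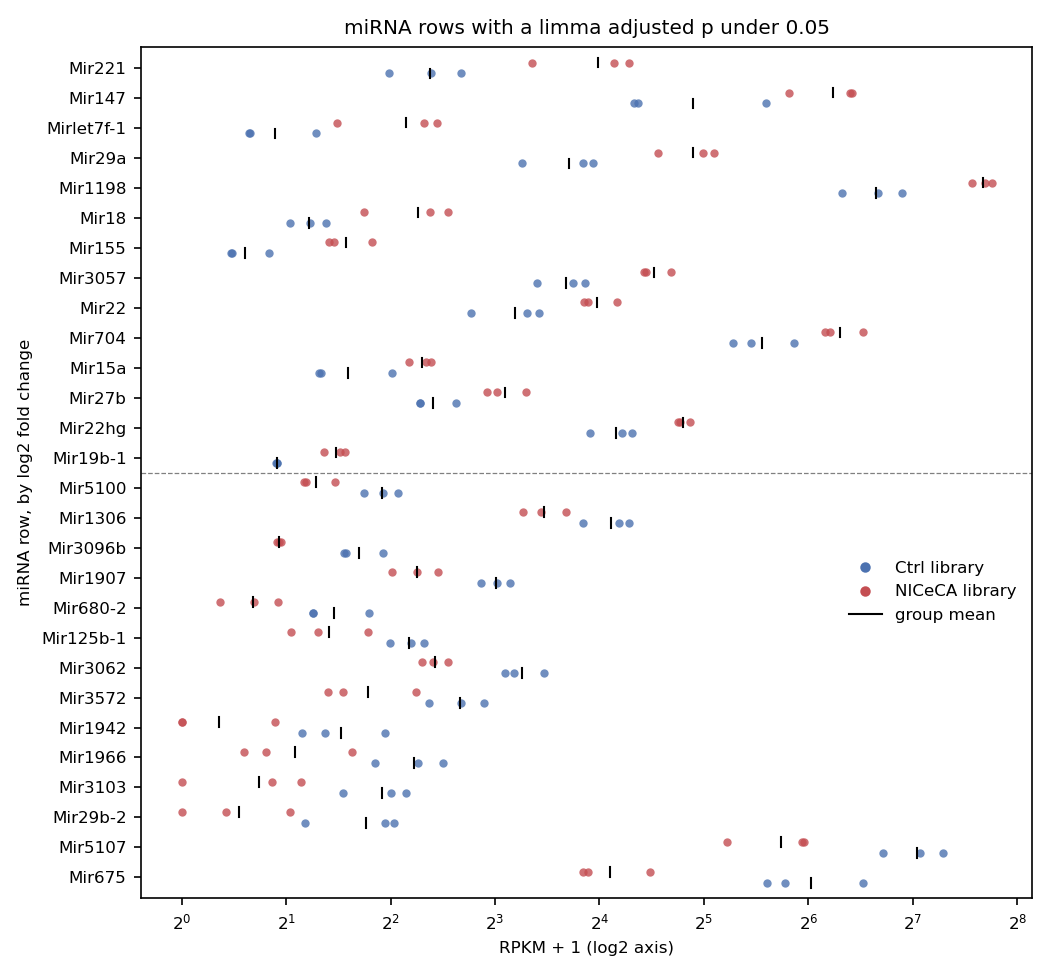
Level in each library, as RPKM + 1 on a log2 axis, of the miRNA rows that passed the test, ordered by fold change, with libraries colored by group and a black tick at each group mean. The groups are apart in every row shown, and many of the rows lie at only a few RPKM.

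The calls are given next by where the rows lie. Of 44 tested single precursor rows with no containing row kept, 7 rose and 0 fell in the limma fit, 15.9% higher against 5.88% of all rows, and the median over the 44 was 0.20. Of these 44 rows 3, Mir221 among them, do lie in the span of RefSeq rows that were left out because no gene of that name was found to hold the miRNA row. The 7 were Mir221, Mir29a, Mirlet7f-1, Mir18, Mir19b-1, Mir155 and Mir27b; without Mirlet7f-1, Mir19b-1 and Mir155, which passed the filter only through NICeCA, 4 are left. Of 125 tested rows with a containing row kept 5 rose and 13 fell, 14.4% called and 10.4% lower against 7.68% of all rows, with a median of -0.23. Among those that fell, Mir1942, Mir29b-2, Mir3096b and Mir3103 passed the filter only through Ctrl, so the share that fell is smaller without them. Both sets hold short rows, and the 3080 shortest tested rows, up to 1668 bases, which take in all 169 tested single precursor rows, gave 9.9% higher and 2.34% lower with a median of 0.11. The part of row length was not tested, and no test of the difference between these 2 sets was made.

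Among rows that rose, Mir221 changed most. The Mir221 hairpin (chromosome X, 19146294 to 19146388) belongs to an X-linked pair with Mir222 that restrains Kit signaling in endothelial cells. Its row held 2.97, 4.23 and 5.40 RPKM in Ctrl and 9.23, 18.5 and 16.7 in NICeCA. Every NICeCA library lay above every Ctrl library, with NICeCA 1 the lowest of its group (log2 fold change 1.58 ± 0.27, limma adjusted p = 0.0209). Mir222 held 1.30, 0.636 and 2.27 RPKM in Ctrl and 1.04, 4.30 and 3.40 in NICeCA, and its groups overlapped, since NICeCA 1 lay among the Ctrl values (0.65 ± 0.38, limma adjusted p = 0.255).

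Mir147, a miRNA induced by Toll-like receptor signals in macrophages, lies in an exon of AA467197. Its level was 19.1, 19.7 and 47.4 RPKM in Ctrl and 83.2, 84.3 and 55.4 in NICeCA, with Ctrl 3 much closer to NICeCA than the other Ctrl libraries (log2 fold change 1.44 ± 0.34, limma adjusted p = 0.0383). The AA467197 row held 26.3, 19.1 and 63.7 RPKM in Ctrl and 93.4, 96.8 and 66.7 in NICeCA, again with Ctrl 3 near the NICeCA libraries, and narrowly missed the test (1.38 ± 0.39, limma adjusted p = 0.0542). Mir155, which is made from the Bic transcript in activated immune cells, held few reads, 2, 1 and 1 reads in Ctrl and 6, 4 and 4 in NICeCA. Its Ctrl mean was under 1 RPKM, so it passed the filter only through NICeCA (0.96 ± 0.18, limma adjusted p = 0.0242). Beside these 2 rows stand the macrophage markers, of which 3 of 10 rose (Cd68, Fcgr1 and Itgam) and 6 had negative values (median -0.15; C1qa -0.54, C1qb -0.41 and C1qc -0.53, none past the test), and the neutrophil markers, of which 6 of 7 rose; their part was not tested.

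Mir29a, of a family that represses collagens and other matrix genes, held 13.4, 8.56 and 14.3 RPKM in Ctrl and 30.8, 33.2 and 22.6 in NICeCA. The lowest NICeCA library, replicate 3, was still above all Ctrl libraries (log2 fold change 1.20 ± 0.22, limma adjusted p = 0.0227). Mirlet7f-1, a let-7 precursor, held 5, 2 and 2 reads in Ctrl and 13, 14 and 6 in NICeCA, again with NICeCA 3 lowest of its group (1.22 ± 0.29, limma adjusted p = 0.0376). Of the 11 let-7 members 6 were tested, 4 with positive and 2 with negative values, and Mirlet7f-1 alone passed, 16.7% higher against 5.88% of all rows. It passed the filter only through NICeCA, so 0 limma calls are left without it. Mir27b, of the miR-23b cluster, held 3.86, 5.16 and 3.86 RPKM in Ctrl and 7.13, 6.60 and 8.83 in NICeCA with the groups apart (0.69 ± 0.15, limma adjusted p = 0.0348). Its cluster neighbor Mir23b, at 4.50, 2.04 and 3.46 RPKM in Ctrl and 2.96, 3.83 and 2.90 in NICeCA, had overlapping groups (0.00 ± 0.22, limma adjusted p = 0.999).

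Mir574, which lies in an intron of Fam114a1, had 1 of the 5 largest positive changes among rows with groups apart. It held 5, 3 and 2 reads in Ctrl and 5, 9 and 16 in NICeCA. Ctrl 1 and NICeCA 1 were tied in reads and apart only in RPKM, at 1.64 and 1.76. Mir574 did not pass (log2 fold change 1.05 ± 0.31, limma adjusted p = 0.0598), while Fam114a1 rose (0.43 ± 0.11, limma adjusted p = 0.0415).

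Mir22 lies in an exon of its own host transcript Mir22hg, and the rows rose together. The hairpin row held 9.70, 5.82 and 8.91 RPKM in Ctrl and 17.0, 13.4 and 13.9 in NICeCA and the host 17.6, 14.0 and 18.9 RPKM in Ctrl and 26.3, 28.2 and 26.0 in NICeCA. In each, the Ctrl libraries were all below the NICeCA libraries (Mir22 0.81 ± 0.19, limma adjusted p = 0.0379; Mir22hg 0.65 ± 0.14, limma adjusted p = 0.0323). Mir704 lies partly in an exon of Pdia4, a disulfide isomerase of the endoplasmic reticulum, and held 37.9, 42.7 and 57.3 RPKM in Ctrl and 90.7, 70.3 and 72.9 in NICeCA, the highest value in NICeCA 1 (0.76 ± 0.18, limma adjusted p = 0.0388). Pdia4 itself rose (0.88 ± 0.17, limma adjusted p = 0.0266). Mir3057, in an exon of the adaptor gene Apba3, held 9.57, 12.4 and 13.5 RPKM in Ctrl and 20.48, 20.9 and 24.8 in NICeCA and was lowest in Ctrl 1 (0.85 ± 0.15, limma adjusted p = 0.0229). Mir15a, which targets Bcl2 and lies in an intron of Dleu2, held 10, 5 and 5 reads in Ctrl and 13, 12 and 11 in NICeCA. The highest Ctrl and the lowest NICeCA library differed by 1 read (0.74 ± 0.20, limma adjusted p = 0.0493), while Dleu2 did not pass (0.27 ± 0.19, limma adjusted p = 0.341).

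Among rows that fell, Mir675 changed most. It lies in an exon of H19, the maternally expressed imprinted RNA that is its primary transcript (chromosome 7, 142577064 to 142577147). The hairpin row held 53.7, 90.9 and 47.6 RPKM in Ctrl and 13.4, 13.8 and 21.4 in NICeCA and H19 held 78.6, 107 and 61.5 RPKM in Ctrl and 28.1, 22.0 and 32.3 in NICeCA. Ctrl 2 was highest in each and every NICeCA library lay below every Ctrl library (Mir675 -1.89 ± 0.27, limma adjusted p = 0.0139; H19 -1.53 ± 0.22, limma adjusted p = 0.0151). H19 is abundant in fetal and stromal cells, and of 8 tested fibroblast markers 3 fell (Col3a1, Pdgfra and Lum), 1 rose (Postn, 1.14) and Col1a1 and Col1a2 gave 0.10 and 0.55 without passing; the epithelial Krt18 also fell; their part was not tested.

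Mir5107 lies partly in an exon of Cd74, the invariant chain of MHC class II. It held 155, 104 and 133 RPKM in Ctrl and 61.0, 60.2 and 36.3 in NICeCA and Cd74 held 1306, 800.2 and 1310.1 RPKM in Ctrl and 646, 588 and 331 in NICeCA. NICeCA 3 was lowest in each and the groups were apart (Mir5107 -1.32 ± 0.24, limma adjusted p = 0.0223; Cd74 -1.15 ± 0.30, limma adjusted p = 0.0443). The lymphocyte markers, some of whose cells also make MHC class II, gave 0 calls of 7 tested in the limma fit. Of 10 macrophage markers 3 rose (Cd68, Itgam and Fcgr1) and 0 fell in the limma fit, and their sums, given above, overlapped between the groups with NICeCA 3 lowest; the part of either list was not tested.

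Several rows fell, as did the RefSeq row that contains them. Mir1907 lies partly in an exon of Trps1, a GATA-type repressor, and held 7.11, 7.81 and 6.27 RPKM in Ctrl and 3.04, 3.78 and 4.48 in NICeCA, all NICeCA libraries below all Ctrl libraries (-0.77 ± 0.15, limma adjusted p = 0.0263; Trps1 -0.74 ± 0.18, limma adjusted p = 0.0402). Mir3062, in Pfas of purine synthesis, held 7.56, 10.0 and 8.06 RPKM in Ctrl and 3.91, 4.32 and 4.86 in NICeCA with a narrow spread in NICeCA (-0.83 ± 0.14, limma adjusted p = 0.0206; Pfas -0.82 ± 0.21, limma adjusted p = 0.0424). Mir1966, in Fam65a, held 2.61, 4.65 and 3.80 RPKM in Ctrl and 0.507, 2.10 and 0.746 in NICeCA, and NICeCA 2 was nearest to Ctrl (-1.19 ± 0.29, limma adjusted p = 0.0391; Fam65a -0.75 ± 0.14, limma adjusted p = 0.0243). Mir3572, in an exon of the deadenylase subunit gene Cnot3, held 4.17, 6.42 and 5.37 RPKM in Ctrl and 1.91, 1.65 and 3.75 in NICeCA, with NICeCA 3 close to the lowest Ctrl library (-0.91 ± 0.24, limma adjusted p = 0.0454; Cnot3 -0.61 ± 0.15, limma adjusted p = 0.0418). Mir3103, in BC017158, held 9, 8 and 5 reads in Ctrl and 2, 0 and 3 in NICeCA, and Mir1942, in an intron of the cytoskeletal linker gene Plec, held 7, 4 and 3 reads in Ctrl and 0, 0 and 2 in NICeCA. These last rows, Mir3103 and Mir1942, had a NICeCA mean under 1 RPKM, so they passed the filter only through Ctrl. They rest on a handful of reads (Mir3103 -1.23 ± 0.30, limma adjusted p = 0.0409, and Mir1942 -1.19 ± 0.30, limma adjusted p = 0.0425). Plec, with many more reads, fell (-1.06 ± 0.18, limma adjusted p = 0.0211).

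The remaining rows that fell are given here. Mir29b-2 held 4, 10 and 9 reads in Ctrl and 1, 3 and 0 in NICeCA, with no read in NICeCA 3 (log2 fold change -1.23 ± 0.32, limma adjusted p = 0.0433), and the row A330023F24Rik that contains it did not pass (-0.09 ± 0.17, limma adjusted p = 0.726). Mir125b-1, studied as a regulator of the p53 network, held 9, 11 and 12 reads in Ctrl and 3, 4 and 7 in NICeCA with NICeCA 3 nearest to Ctrl (-0.79 ± 0.20, limma adjusted p = 0.0433). The noncoding row that contains it, 2610203C20Rik, held 6.35, 17.4 and 9.58 RPKM in Ctrl and 1.38, 3.29 and 4.62 in NICeCA and fell further (-1.55 ± 0.39, limma adjusted p = 0.0427). Mir1306 lies in an exon of Dgcr8 and held 18.5, 17.2 and 13.3 RPKM in Ctrl and 11.8, 8.61 and 9.86 in NICeCA, Ctrl above NICeCA throughout (-0.64 ± 0.16, limma adjusted p = 0.0435). Mir3096b, Mir5100 and Mir680-2 had means of 4.17 to 5.50 reads, with log2 fold changes of -0.75, -0.64 and -0.77. Mir680-2 is a row spanning several loci (chromosome 9, 22057713 to 22379223). Neither Smcr7, which contains Mir5100, nor 2700038G22Rik, which contains Mir3096b, passed (Smcr7 -0.148 ± 0.133, limma adjusted p = 0.452, and 2700038G22Rik -0.745 ± 0.282, limma adjusted p = 0.105).

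Pairs of a miRNA row and the RefSeq row that contains it show how far the hairpin region followed its host. In all 208 miRNA rows lay inside 193 containing rows, making 215 pairs, of which 127 had both rows tested. The signs were the same in 102 of the 127 pairs. Where the hairpin lay in an exon of the host on the same strand, 44 of 46 pairs shared their sign (r = 0.86 across pairs), and the hairpin row stood at a median of 0.831 of the host level per length. Where it lay partly in an exon, 20 of 23 did (r = 0.88, level ratio 0.521). In introns 25 of 39 did (r = 0.41, level ratio 0.172). The hairpin lay in an exon on the opposite strand in 5 tested pairs, 4 with the same sign (level ratio 1.23). It lay in an intron there in 6, 5 with the same sign (level ratio 0.0827). Here an exon is one of any GENCODE transcript of the gene, retained introns included, so that Mir126 in Egfl7 counts as exonic. The pairs share the same 6 libraries, and reads over an exonic hairpin can be counted in both rows, which cannot be told apart in the deposited values.

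**Figure D2:**
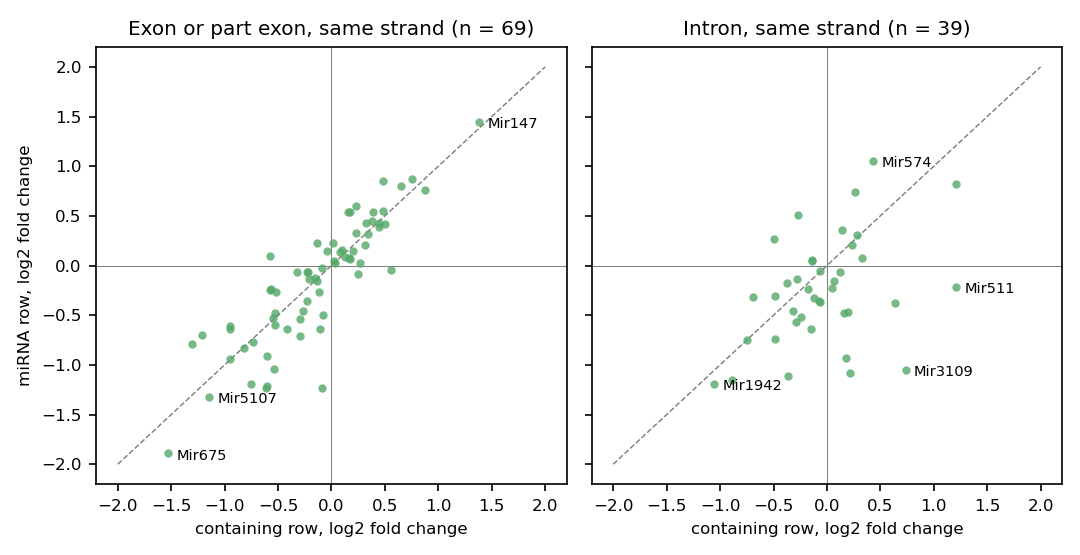
Log2 fold change of each miRNA row against that of the row containing it, for hairpins in exons or partly in exons (left) and in introns (right), with a dashed line at equality. Exonic pairs lie along the line and intronic pairs scatter around it.

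Of the containing rows 174 were tested, 8 rose and 27 fell, 20.1% against 13.6% of all rows (4.6% against 5.88% higher, 15.5% against 7.68% lower), with a median of -0.13. With trimmed mean scaling 12 rose and 21 fell, while among all RefSeq rows more rose than fell in that scaling, as given below. Among the 127 pairs, 12 had both rows called and all 12 shared their sign. They include Mir1942 with Plec and Mir3103 with BC017158, whose miRNA rows passed the filter only through Ctrl. The count of containing rows called was 9 without Ctrl 2, 1 without NICeCA 1 and 0 by limma without NICeCA 2. In that last limma fit 51 had an unadjusted p under 0.05. Leaving out 1 library left 27 to 1661 of all RefSeq rows called, against 1671 with all libraries. Voom on all libraries called 36 containing rows and 1765 of all RefSeq rows. Row length moved with the direction. Of the 3080 longest tested rows (4208 bases and more) 514 fell and 51 rose, and of the 3080 shortest (up to 1668 bases) 72 fell and 305 rose. The containing rows had a median length of 3543 bases against 2733 for all tested rows, and 67 of 174 were among the 3080 longest; the part of length in these calls was not tested.

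Some pairs parted, and these were picked after their values were seen. Mir3109, in an intron of Anxa2, held 5.53, 9.42 and 3.496 RPKM in Ctrl and 1.56, 2.90 and 2.44 in NICeCA, lower in every NICeCA library (-1.05 ± 0.30, limma adjusted p = 0.0542), while Anxa2, a membrane-binding annexin, rose (0.74 ± 0.15, limma adjusted p = 0.0312). Mir511 lies in an intron of Mrc1, the macrophage mannose receptor, and held 3.24, 1.27 and 9.41 RPKM in Ctrl and 4.51, 2.15 and 2.72 in NICeCA, with overlapping groups (-0.21 ± 0.50, limma adjusted p = 0.786). Mrc1 held 84.4, 45.8 and 123 RPKM in Ctrl and 347, 139 and 125 in NICeCA and did not pass (1.21 ± 0.45, limma adjusted p = 0.105). Mir664, in an intron of Rab3gap2, gave -1.09 against 0.21 for the host, neither past the test.

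The endothelial list, of miRNAs known from vessels, held 18 members of 22 names. Of 14 tested 2 rose (Mir221 and Mir27b) and 1 fell (Mir125b-1), 21.4% against 13.6% of all rows, with a median of -0.01. All 14 endothelial marker genes had positive values, with a median of 0.66, and their part was not tested. Mir126, the most studied endothelial miRNA, held 16, 4 and 6 reads in Ctrl and 4, 9 and 8 in NICeCA, highest in Ctrl 1, and the groups overlapped (log2 fold change -0.05 ± 0.38, limma adjusted p = 0.943). Its host Egfl7, an endothelial secreted factor, held 71.2, 29.4 and 32.0 RPKM in Ctrl and 51.9, 65.5 and 64.7 in NICeCA, with Ctrl 1 the highest of all libraries (0.56 ± 0.31, limma adjusted p = 0.234). Mir126 stood at 0.0541 of the Egfl7 level per length. Mir31 held 7.97, 12.8 and 11.9 RPKM in Ctrl and 2.84, 3.21 and 9.63 in NICeCA, where NICeCA 3 reached the Ctrl range (-1.07 ± 0.37, limma adjusted p = 0.0876). In the miR-23a cluster Mir23a, Mir27a and Mir24-2 gave -0.29, -0.07 and -0.23, and their groups overlapped.

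Of 6 tested blood-lineage miRNAs 2 rose (Mir155 and Mir22) and 0 fell in the limma fit, 33.3% higher against 5.88% of all rows, with a median of 0.84. Mir155 passed the filter only through NICeCA, so 1 of these 2 calls is left without it. Mir223, which is made in neutrophils and other myeloid cells, held 8.15, 3.65 and 10.96 RPKM in Ctrl and 11.2, 13.4 and 16.8 in NICeCA, the groups just apart and Ctrl 2 lowest (0.87 ± 0.33, limma adjusted p = 0.102). F630028O10Rik, the row whose exon contains it, held 6.64, 4.75 and 8.53 RPKM in Ctrl and 10.1, 12.6 and 12.3 in NICeCA and rose (0.75 ± 0.19, limma adjusted p = 0.0434). Mir142, expressed across blood cells, held 13.6, 7.06 and 21.6 RPKM in Ctrl and 14.6, 12.4 and 11.3 in NICeCA, overlapping and highest in Ctrl 3 (-0.02 ± 0.33, limma adjusted p = 0.976). Mir150, of mature lymphocytes, gave 0.99 and Mir21, abundant in tumors, gave 0.53, neither past the test. The neutrophil marker sums given above were higher in every NICeCA library, and their part at the Mir223 locus was not tested.

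Of 7 tested fibroblast and mural miRNAs 1 rose (Mir29a) and 1 fell (Mir29b-2), 14.3% each way against 5.88% of all rows higher and 7.68% lower, with a median of -0.64. Mir29b-2, the only row of the list that fell, passed the filter only through Ctrl, so 1 of the 2 calls is left without it. Mir199a-2 lies with Mir214 in Dnm3os, a noncoding RNA of mesenchymal cells, and held 20.02, 25.6 and 12.1 RPKM in Ctrl and 6.73, 6.70 and 16.4 in NICeCA. NICeCA 3 lay within the Ctrl range (-0.94 ± 0.36, limma adjusted p = 0.111), and Dnm3os narrowly missed the test (-0.95 ± 0.26, limma adjusted p = 0.0508). Mir145, of smooth muscle, held 1, 3 and 3 reads in Ctrl and 3, 3 and 9 in NICeCA and gave 0.62, while the row Mir143hg that contains it gave -0.75. The fibroblast sums given above were lowest in NICeCA 1 and NICeCA 2. The mural sums were higher in every NICeCA library than in every Ctrl library, with 6 of 7 tested markers positive, 2 of them past the test, and a median of 0.77. The part of either list was not tested. Of the imprinted list 5 of 20 names were members and 2 were tested, Mir675, which fell, and Mir296 (-0.12 ± 0.20, limma adjusted p = 0.688), 50.0% lower against 7.68% of all rows.

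The miR-17-92 cluster is a polycistron driven by MYC that favors growth, and 2 of its rows passed the test. Its 6 hairpin rows, 536 bases together, held 24, 23 and 30 reads in Ctrl and 51, 49 and 48 in NICeCA. The groups did not overlap in this sum, which was not tested. Mir18 held 6, 4 and 5 reads in Ctrl and 17, 8 and 15 in NICeCA and rose (1.01 ± 0.22, limma adjusted p = 0.033), as did Mir19b-1 with 3, 3 and 3 reads in Ctrl and 5, 6 and 6 in NICeCA (0.57 ± 0.13, limma adjusted p = 0.0366). Mir19a, Mir17 and Mir20a gave 0.94, 0.58 and 0.43 without passing, and Mir92-1 was under the filter. Mir17hg, whose row begins downstream of most of the hairpins, held 177, 260 and 203 reads in Ctrl and 216, 260 and 279 in NICeCA. Its groups overlapped (0.26 ± 0.15, limma adjusted p = 0.243). Fragments longer than a hairpin can count in neighboring rows, so the cluster's rows are not independent. Of the wider MYC-linked list 7 were tested, 2 rose and 0 fell in the limma fit, 28.6% higher against 5.88% of all rows, with a median of 0.57; Mir19b-1 passed the filter only through NICeCA, so 1 call is left without it.

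The study names miR-218, whose 2 genes lie in introns of the guidance ligand genes Slit2 and Slit3. Mir218-1 held 0 reads in every library and Mir218-2 held 1 read, in Ctrl 1, so neither was a member. A row of this length needs 0.685 to 0.773 RPKM, by library, to hold 3 reads. Slit2 itself held 0.644, 1.25 and 0.870 RPKM in Ctrl and 0.189, 0.291 and 0.518 in NICeCA, lower in every NICeCA library. Slit3 held 0.466, 0.814 and 0.708 RPKM in Ctrl and 0.938, 0.890 and 1.32 in NICeCA, higher in every NICeCA library. Both rows were under the filter and were tested singly: the log2 differences were -0.52 for Slit2 and 0.30 for Slit3, each with an exact permutation p of 0.1, the smallest that 20 assignments allow. The 1 added to each RPKM shrinks differences at such low levels. With a filter of 10 reads in place of 1 RPKM, limma gave Slit2 an adjusted p of 0.0524 and Slit3 one of 0.132. Voom with that filter, a setting chosen after seeing the data, gave log2 fold changes of -1.53 and 0.68 with limma adjusted p values of 0.0434 and 0.132. The Mir342 row was not analysed here.

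Genes that make and load miRNAs come next. Of 38 names on the list 34 had rows and 31 were tested: 8 fell and 0 rose by limma, 25.8% against 7.68% of all rows in the lower direction, and 23 of the 31 values were negative, with a median of -0.30. Drosha, the nuclear endonuclease, held 5.597, 7.31 and 5.33 RPKM in Ctrl and 2.85, 2.93 and 4.27 in NICeCA, its lowest Ctrl library above its highest NICeCA library (log2 fold change -0.71 ± 0.17, limma adjusted p = 0.0397). Its partner Dgcr8 held 8.47, 11.1 and 7.63 RPKM in Ctrl and 6.41, 6.21 and 6.79 in NICeCA, also apart but not past the test (-0.42 ± 0.15, limma adjusted p = 0.0902). Xpo5, the export receptor, held 8.82, 13.1 and 10.8 RPKM in Ctrl and 6.40, 5.75 and 7.89 in NICeCA with a narrow gap between the groups (-0.63 ± 0.17, limma adjusted p = 0.048), while Ran, its GTPase, had overlapping groups (0.17 ± 0.15, limma adjusted p = 0.447).

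Dicer1, the cytoplasmic endonuclease, held 5.57, 6.31 and 6.23 RPKM in Ctrl and 3.24, 3.81 and 4.12 in NICeCA, even within each group and apart between them (log2 fold change -0.58 ± 0.12, limma adjusted p = 0.0329). Ago1 held 5.23, 6.06 and 6.59 RPKM in Ctrl and 3.62, 3.85 and 4.30 in NICeCA and fell (-0.50 ± 0.13, limma adjusted p = 0.0433), whereas Ago2, the Argonaute that cleaves its targets, held 11.2, 14.1 and 17.4 RPKM in Ctrl and 8.23, 9.46 and 10.5 in NICeCA and did not pass (-0.54 ± 0.17, limma adjusted p = 0.0709). All 3 Tnrc6 genes, the scaffold proteins of silencing, fell: Tnrc6a -0.45 ± 0.12, limma adjusted p = 0.0434, Tnrc6b -0.54 ± 0.12, limma adjusted p = 0.0351 and Tnrc6c -0.65 ± 0.12, limma adjusted p = 0.0223. Mov10, a helicase that works with Argonaute, held 5.91, 11.8 and 9.26 RPKM in Ctrl and 3.62, 3.89 and 5.31 in NICeCA, with Ctrl 2 highest (-0.89 ± 0.23, limma adjusted p = 0.0451). The helicases Ddx5 and Ddx3x gave 0.23 and 0.41 without passing.

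The biogenesis count by limma was 1 without Ctrl 2, 4 without Ctrl 3, and 0 without NICeCA 1 or NICeCA 2. Without NICeCA 1 or NICeCA 2, 10 genes had an unadjusted limma p under 0.05 in each case. With a replicate block limma called 0 and 13 had an unadjusted p under 0.05, while voom on all libraries called 8. Limma calls among all RefSeq rows also fell, from 1671 to between 27 and 1661 with 1 library left out, and were fewer with the block. These genes had a median row length of 4225 bases and 16 of 31 were among the 3080 longest rows, of which 16.7% fell; the part of length was not tested. Dgcr8, Xpo5, Tnrc6b and Ddx5 also contain miRNA rows (Mir1306, Mir693, Mir5113 and Mir3064).

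**Figure D3:**
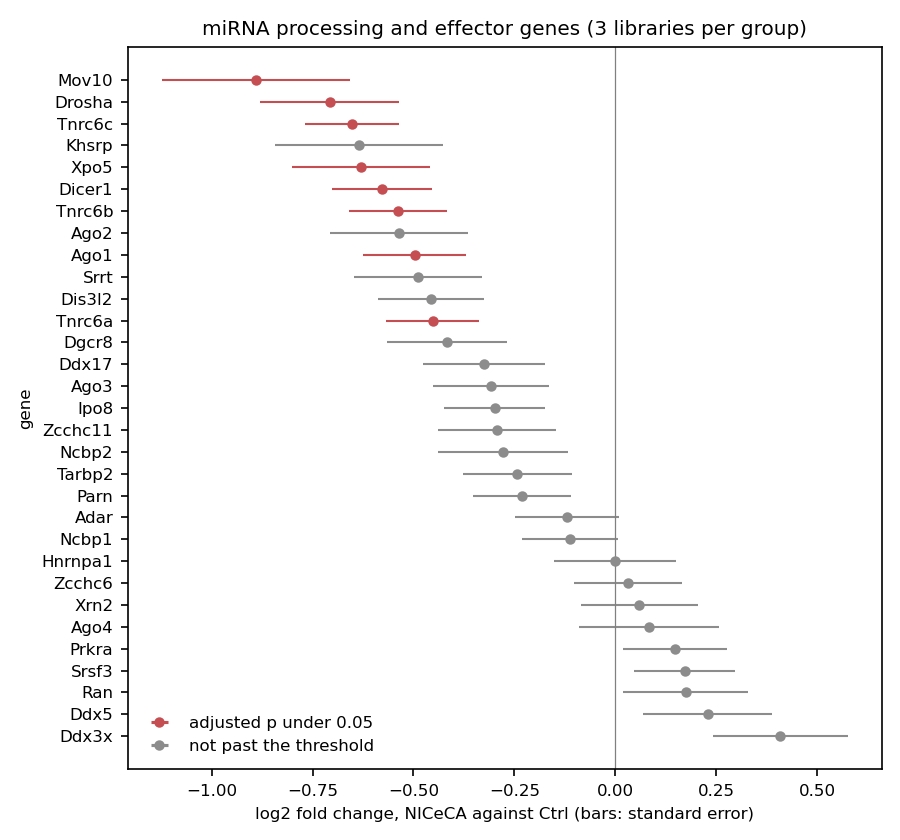
Log2 fold change of each tested biogenesis gene with its standard error, the 8 that passed the test marked. Most points lie below 0, and none that passed lies above it.

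The mature sequences show which rows share a seed. Of the 313 members 259 matched a RefSeq hairpin and 258 a mature sequence; the sequences below are from RefSeq (GRCm38.p6), written with the seed, bases 2 to 8, in capitals. They are shown because their rows passed the test, share a seed with such a row, belong to the miR-17-92 cluster or, for miR-218, because the study names it. The 18 sequences have 11 distinct seeds.
miR-221-3p: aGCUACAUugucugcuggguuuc
miR-222-3p: aGCUACAUcuggcuacugggucu
miR-29a-3p: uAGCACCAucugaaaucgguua
miR-29b-3p: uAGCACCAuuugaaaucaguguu
miR-29c-3p: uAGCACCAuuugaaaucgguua
miR-27a-3p: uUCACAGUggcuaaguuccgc
miR-27b-3p: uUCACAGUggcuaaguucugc
let-7a-5p: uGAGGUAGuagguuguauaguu
let-7f-5p: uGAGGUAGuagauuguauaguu
miR-17-5p: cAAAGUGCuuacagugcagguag
miR-20a-5p: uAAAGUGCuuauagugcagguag
miR-18a-5p: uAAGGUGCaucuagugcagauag
miR-19a-3p: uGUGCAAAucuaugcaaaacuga
miR-19b-3p: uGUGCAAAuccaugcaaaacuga
miR-155-5p: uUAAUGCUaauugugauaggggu
miR-22-3p: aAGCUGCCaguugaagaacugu
miR-125b-5p: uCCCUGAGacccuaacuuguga
miR-218-5p: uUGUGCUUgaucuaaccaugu

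The families are given by the sign of their values. Among the 146 tested members with a matched mature sequence 19 seeds were shared by at least 2 rows. Of these seeds 10 held values of both signs, most of them from rows that did not pass. In the miR-29 family Mir29a rose, Mir29b-2 fell and Mir29c did not pass (log2 fold change -0.02 ± 0.26, limma adjusted p = 0.956); Mir29b-2 was tested only through its Ctrl level, as Mirlet7f-1 was through its NICeCA level. In the let-7 family Mirlet7f-1 rose while Mirlet7f-2, which makes the same mature let-7f from an intron of the ubiquitin ligase gene Huwe1, gave -0.31 without passing. Mir27b rose and Mir27a gave -0.07. The Mir221 and Mir222 values were both positive. What these differences do to the amount of mature miRNA was not measured.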

How the data were processed

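The RPKM values are those the authors deposited for 56826 rows, 23473 of them RefSeq rows, from TECs of 3 Ctrl and 3 NICeCA mice captured on beads that bind CD31 (rRNA-depleted total RNA). The submitters' processing notes name TopHat2 and mm9. The row positions match GRCm38, where 251 of 259 matched members overlap their RefSeq hairpin. The sources used here name neither the counting tool nor its strand setting. Reads were recovered from RPKM and row length as whole multiples (100% of values under 1000 reads lay within 0.05 of one), giving 39050405, 39823498 and 39000759 reads in Ctrl and 36495652, 35303191 and 37239310 in NICeCA; at this depth most precursor rows hold under 10 reads.

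RefSeq rows with a mean of at least 1 RPKM were compared on log2(RPKM + 1) with limma 3.58.1 in R 4.3.3 (mean-variance trend, adjusted p under 0.05 over all 12320 rows); tables were made in Python 3.11.15 with pandas 2.3.3. The code was tested on simulated data in which only rows with more reads than most miRNA rows hold were changed. That test does not cover rows with few reads. Single values outside the fit had an exact permutation test. A containing row is a RefSeq row whose position holds the miRNA row and whose gene does so in GENCODE M21 or RefSeq; 56 other pairs, most of them with rows that span many megabases, were left out. Alternatives were other filters, a pseudocount of 0.1, other scalings, no trend, voom, a replicate block and leaving out each library. Same-numbered libraries of the groups correlated at 0.12, -0.34 and -0.18 after the group means were removed. The numbers were not used to pair the mice, since the study's methods name no paired test. Those methods do speak of pairs of mice, without saying which libraries they are. Ctrl 2 with NICeCA 3 correlated at 0.44, Ctrl 1 with NICeCA 2 at 0.27 and Ctrl 3 with NICeCA 1 at 0.10. This full pairing is positive in all 3 pairs, but it was picked after the values were seen, and no fit used it. Removing the group means forces correlations of both signs, so these values can neither show nor exclude pairing. The p-values measure spread between these mice. The members and lists were chosen with earlier results of these data known. Mir342 was not analysed here.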

Additional observations from a re-analysis of the deposited data

How the results depend on the processing

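With a replicate block, which treats same-numbered mice as paired, limma called 16 miRNA rows in place of 28, 12 containing rows in place of 35, 0 biogenesis genes in place of 8, 536 RefSeq rows in place of 1671 and 20 named miRNA and host rows in place of 42. The numbers were not taken to pair the mice.

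The miRNA row count was 11 with no filter, 15 with a mean of at least 5 RPKM, 15 with at least 10 reads, 13 after quantile normalization and 7 with voom. The containing rows gave 5 with no filter, 23 with at least 10 reads and 20 after quantile normalization. The biogenesis genes gave 1, 5, 4 and 1 with no filter, at least 5 RPKM, at least 10 reads and quantile normalization. The count of all RefSeq rows called was 365 with no filter and 771 after quantile normalization. The named miRNA and host rows gave 7 with no filter, 22 with at least 10 reads, 22 after quantile normalization and 22 with voom. Voom with at least 10 reads, chosen after seeing the data, gave 7 miRNA rows and 23 named rows.

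Leaving out 1 library at a time gave 0 to 27 miRNA rows, 0 to 30 containing rows, 0 to 6 biogenesis genes, 27 to 1661 RefSeq rows and 0 to 31 named rows. Of all RefSeq rows called, 725 rose and 946 fell as deposited (median -0.05), 1006 and 744 with trimmed mean scaling (median 0) and 446 and 325 after quantile normalization (median -0.02). None of the 28 miRNA rows, 35 containing rows and 8 biogenesis genes called turned its direction in a setting that gave it a value; filters left 14 or 16 of the 28 with one in some settings. The cause of these shifts was not tested.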

Other observations

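The row named Mir1198 rose (log2 fold change 1.04 ± 0.17, limma adjusted p = 0.0192) at 100.8, 79.0 and 118 RPKM in Ctrl and 188, 206 and 215 in NICeCA, and its place in the table differs from that in RefSeq. The row spans 120612 bases of chromosome 12 (55370695 to 55491306) with a counted length of 62 bases, whereas the RefSeq hairpin lies on chromosome X (7807101 to 7807221). The end of the row lies in an exon of Nfkbia, the inhibitor of NF-kappa-B, which was chosen after its values were seen; the row is on the plus strand and Nfkbia on the minus strand. Nfkbia held 397, 307 and 371 RPKM in Ctrl and 630.0, 714 and 872 in NICeCA, every NICeCA library above every Ctrl library (1.04 ± 0.17, limma adjusted p = 0.0203). Whether the 2 rows share reads was not tested.

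Some precursor rows overlap another precursor row on the opposite strand, also chosen after the values were seen. Mir24-1, 68 bases long, lies wholly inside Mir3074-1, 85 bases long. It held 9, 4 and 9 reads in Ctrl and 7, 6 and 6 in NICeCA, against 73, 45 and 50 reads in Ctrl and 100, 74 and 62 in NICeCA for Mir3074-1. At the other copy Mir24-2, of 107 bases, held 144, 105 and 160 reads in Ctrl and 83, 98 and 143 in NICeCA and Mir3074-2 inside it held 32, 18 and 47 reads in Ctrl and 26, 18 and 29 in NICeCA. The row with more reads was on a different miRNA at each copy.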
